A study of Homo sapiens with 12 samples.

Results

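RS4;11 cells treated with ADI-PEG20 were compared with RS4;11 cells in control culture, over all genes of the deposited count table. The libraries were chosen by their sample labels alone: 3 treated and 3 control libraries, 6 of the 12 in the series, with replicates numbered 1 to 3 in each group. RS4;11 is an established line of B-precursor acute lymphoblastic leukaemia with a rearranged KMT2A gene. The other 6 libraries come from TOM-1, a lymphoblastic leukaemia line with the Philadelphia chromosome, in the same 2 conditions. Both lines are labelled as wild type lymphoblasts. They were grown in RPMI with foetal bovine serum and taken in log phase, and treated cells received ADI-PEG20 at 1000 ng/ml for 24 h while controls did not. All RS4;11 libraries come from this single line at a single dose and time. The labels do not say that replicates are separate cultures, so the p-values measure only the spread between these libraries, which may be technical. In a bulk sample, fewer cells of a kind and less RNA per cell cannot be told apart.

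ADI-PEG20 is a pegylated bacterial arginine deiminase, which converts arginine in the medium to citrulline. A cell that makes argininosuccinate synthase (ASS1) and argininosuccinate lyase (ASL) can rebuild arginine from citrulline, and a cell without ASS1 depends on arginine from outside. When amino acids run short, uncharged tRNA activates the kinase GCN2, which phosphorylates eIF2α. General translation then falls while the transcription factor ATF4 is translated more, and ATF4 raises genes for amino acid transport, amino acid synthesis, tRNA charging and stress signalling. In parallel, loss of arginine lowers signalling through mTORC1, which drives ribosome production and mitochondrial biogenesis.

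RNA of the B-precursor lineage was present in all 6 libraries. All 20 B-precursor markers, such as PAX5 and VPREB1, were above 1 CPM (counts per 1000000 counts, with library sizes adjusted by edgeR's TMM method), and summed to 5665 to 6043 CPM in controls and 5635 to 6207 CPM in treated libraries. Of 18 genes known from KMT2A-rearranged leukaemia, 17 were above 1 CPM. Of 12 myeloid markers 3 were above 1 CPM, ELANE, PRTN3, CSF3R, S100A8, S100A9 and FCGR3A were at 0, and the list summed to 20.9 to 27.7 CPM in controls and 20.1 to 23.6 in treated libraries. Of 10 T and NK cell markers 8 had counts and 2 were above 1 CPM, while CD3G and KLRD1 were at 0. RNA of this list was thus present, and its sums of 475 to 542 CPM in controls and 482 to 515 in treated libraries overlapped. The 9 erythroid and megakaryocytic and 10 stromal and epithelial markers summed to at most 8.47 CPM in any library, with HBA1, HBB, COL1A2 and EPCAM among those at 0. Total counts were 18958144 to 25010433 per RS4;11 library, with reads in 19857 to 21471 genes. TOM-1 control 3 had reads in 14963 genes, fewer than any other library, and comparisons with TOM-1 were made without it unless stated.

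ATF5 rose and EPOP and NDUFS6 fell in treated RS4;11 cells, and no other gene passed an adjusted p of 0.05. In edgeR's quasi-likelihood test on the 6 libraries, those 3 were 0.0199% of the 15094 genes tested. At an unadjusted p under 0.05 there were 771 genes higher and 947 lower. All 3 treated libraries lay above all 3 controls for 1233 genes, 8.17% of those tested, and below them for 1462 genes, 9.69%. The ratios of treated to control level were 1.35 for ATF5, 0.701 for EPOP and 0.72 for NDUFS6. Leaving out control 3 gave 7 calls, leaving out treated library 3 gave 1 (ASS1), and leaving out any other library gave 0.

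ATF5 encodes a transcription factor of the integrated stress response whose mRNA, like that of ATF4, is translated more when eIF2α is phosphorylated. It read 85.8, 82.8 and 86.9 CPM in the controls and 116, 117 and 111 CPM in the treated libraries. Every treated library was above every control, with a gap far wider than the range within either group. Group means were 85.1 ± 2.12 and 114.8 ± 3.24 CPM (SD, n = 3). The log2 fold change was 0.43 ± 0.07 (SE) with an edgeR adjusted p of 0.0474. ATF5 lies at chr19:49928702-49933935 on the plus strand (GRCh38, GENCODE 29), and 21.2% of its exonic bases overlap a gene on the opposite strand. It passed the threshold in 12 of 19 alternatives. Over the 6 fits that left out a library its log2 fold change was 0.41 to 0.46, with edgeR adjusted p from 0.0368 to 0.509.

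WARS1, the cytosolic tryptophanyl-tRNA synthetase, and SLC7A11, the cystine/glutamate exchanger xCT, did not pass the threshold although their groups did not overlap. WARS1 read 127, 135 and 130 CPM in controls against 175, 171 and 163 CPM with ADI-PEG20. Its log2 fold change was 0.38 ± 0.06 (SE), with an edgeR adjusted p of 0.0628, and 11 of 19 alternatives called it. SLC7A11, at a lower level, read 15.2, 15.8 and 12.6 CPM in controls and 25.5, 23.4 and 20.2 CPM in treated libraries. For both genes, library 3 was the lowest of the treated group, and for SLC7A11 control 3 was the lowest of the controls. The SLC7A11 log2 fold change was 0.67 ± 0.13 (SE), a 1.59-fold difference, with an edgeR adjusted p of 0.119. SLC7A11 was called in 4 of 19 alternatives, and 10.6% of WARS1's exonic bases overlap an opposite-strand gene. With GC and length trends taken out, the SLC7A11 log2 fold change was 0.53 (edgeR adjusted p 0.184). Of 19 cystine, glutathione and NRF2 genes tested, none was called. In that list 2 lay above all controls (10.5%, against 8.17% of all genes) and 7 below (36.8%, against 9.69%). Its median was -0.10, and -0.03 with trends taken out.

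**Figure D1:**
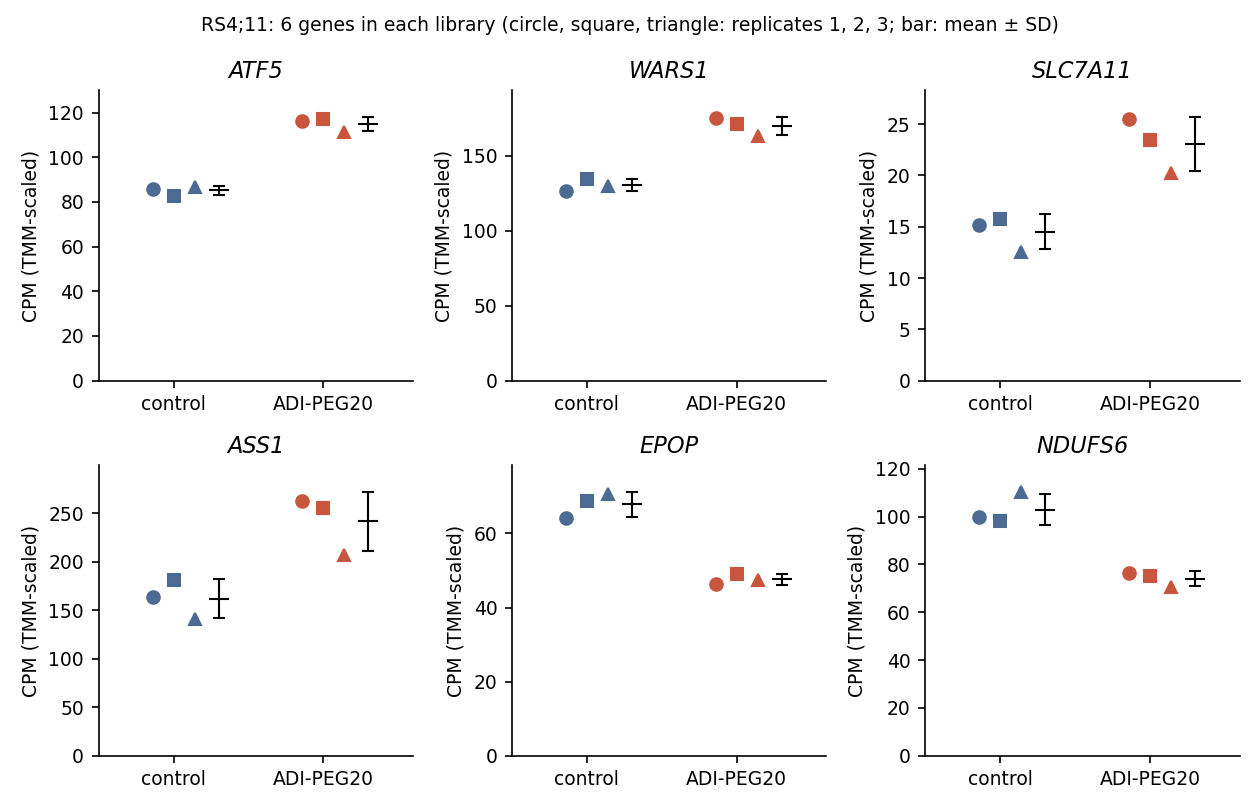
TMM-scaled CPM (vertical axis, from 0) of 6 genes in each RS4;11 library, control in blue and ADI-PEG20 in red, with the mean ± SD of each group as a black bar. In each panel the 3 treated libraries are on 1 side of the 3 controls, as for ATF5 at 111 to 117 against 82.8 to 86.9 CPM.

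EPOP, a protein that associates with the Polycomb repressive complex PRC2 and with elongin, was among the 2 genes that fell. It read 64.1, 68.7 and 70.7 CPM in controls and 46.2, 49.1 and 47.3 CPM in treated libraries, again with no overlap. The log2 fold change was -0.51 ± 0.08 (SE), with an edgeR adjusted p of 0.0474. NDUFS6, an accessory subunit of respiratory complex I, read 99.9, 98.3 and 110.3 CPM in controls and 76.6, 75.0 and 70.5 CPM in treated libraries. Controls and treated libraries were separated for NDUFS6 as well, with control 3 the highest and treated library 3 the lowest. Its log2 fold change was -0.47 ± 0.07 (SE), with an edgeR adjusted p of 0.0474. EPOP lies at chr17:38671703-38675421 on the minus strand and NDUFS6 at chr5:1801400-1816605 on the plus strand, and neither has exonic overlap with another gene. Each was called in 10 of 19 alternatives, and each had an edgeR adjusted p above the threshold when the libraries' trends with transcript GC content and length were taken out (EPOP 0.114, NDUFS6 0.0569), where ATF5 had 0.00344.

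The measured differences moved with GC content and transcript length. Across 10222 genes the log2 fold change had a Spearman correlation of -0.322 with GC content and of 0.315 with transcript length, a description across genes, which are not independent replicates. The median log2 fold change was 0.06 in genes of up to 40% GC and -0.09 in genes above 60% GC. Expression relative to the mean of the 6 libraries changed by 0.00342, 0.0032 and 0.078 log2 per 10 GC points in the controls and by -0.0333, -0.0417 and -0.00964 in the treated libraries, so that the groups did not overlap and control 3 stood apart. With both trends taken out, an alternative added after the data were seen, edgeR called 5 genes, all higher: ATF5, WARS1, CD79A, ASS1 and VAT1L. The part of these trends in the single-gene differences was not tested beyond this.

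**Figure D2:**
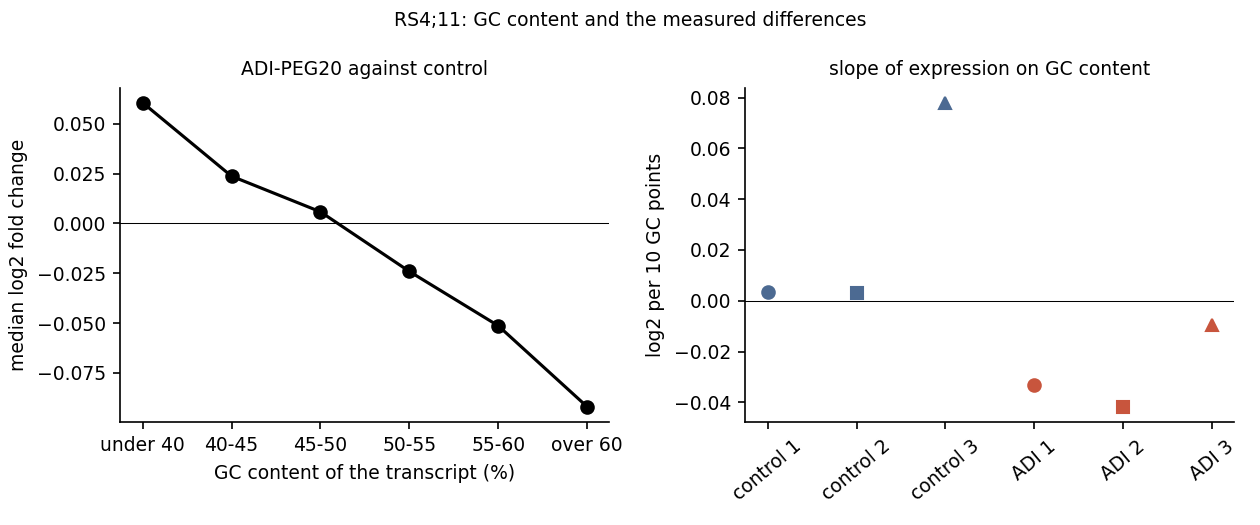
Left, median log2 fold change of ADI-PEG20 against control (vertical) in 6 bins of transcript GC content (horizontal, %). Right, slope of each library's expression, relative to the mean of the 6 libraries, on GC content (log2 per 10 points), with control libraries in blue and treated ones in red; the median goes from 0.06 to -0.09 and control 3 has the steepest slope, 0.078.

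ASS1 was well expressed in RS4;11 controls and read higher in treated libraries, but was not called. It read 163.8, 181 and 141 CPM in controls and 263, 256 and 207 CPM in treated libraries. All treated libraries were above all controls, and library 3 was the lowest of both groups. Group means were 162.0 ± 19.9 and 242.0 ± 30.3 CPM (SD, n = 3). The log2 fold change was 0.58 ± 0.10 (SE), and its edgeR adjusted p of 0.0604 missed the threshold. ASS1 lies at chr9:130444929-130501274 on the plus strand, has no exonic overlap with another gene and was called in 12 of 19 alternatives. Of the 6 fits that left out a library, only those without control 3 and without treated library 3 called it. Over these 6 its log2 fold change was 0.49 to 0.68, with edgeR adjusted p from 0.0182 to 0.509. In TOM-1, ASS1 had 0 reads in the controls and a mean of 0.268 CPM with ADI-PEG20, so no fold is given. ASL, which completes arginine synthesis, read 23.6, 24.2 and 26.7 CPM in RS4;11 controls and 21.8, 20.8 and 21.1 CPM in treated libraries, with a log2 fold change of -0.22 ± 0.11 (SE) that was not called (edgeR adjusted p 0.445).

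No gene on the list of arginine metabolism and transport, which includes ASS1, was called. Of 29 on the list 22 were tested, 5 lay above all controls (22.7%, against 8.17% of all genes) and 3 below (13.6%, against 9.69%), and the median log2 fold change was -0.01, against 0.00 over all genes tested. SLC7A1, the main cationic amino acid importer, read 203, 216 and 189.5 CPM in controls and 253, 235 and 219.5 CPM in treated libraries, and the log2 fold change was 0.22 ± 0.07 (SE). SLC7A3, a related importer, averaged 15.1 CPM in controls and 22.0 CPM in treated libraries, again without overlap, at a log2 fold change of 0.55 ± 0.12 (SE). ODC1, which decarboxylates ornithine for polyamine synthesis, averaged 536 and 486 CPM, and SRM, spermidine synthase, 266 and 222 CPM, both without overlap between groups and neither called. AZIN1, the antizyme inhibitor that stabilises ODC1 protein, averaged 283 and 309 CPM and was not called. OAT, ornithine aminotransferase, had 0 counts in every RS4;11 library, which allows at most 0.12 to 0.158 CPM per library (3 counts, counting error only), while TOM-1 controls averaged 35.2 CPM. ARG2 was near the detection limit, at 1.29 CPM in controls and 0.845 CPM in treated libraries.

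Promoter sequences are shown for genes the comparison turns on, since ATF4 acts through a composite C/EBP-ATF element. The element was searched as TGATGNAA on both strands, which reads TTNCATCA on the other strand, in RefSeq promoters of GRCh38.p14 from 250 bases before to 50 bases after the start. The element occurred in 1003 of 27305 promoters (3.67%) and in 183 of 10522 promoters of genes tested here (1.74%). Among ATF4 targets 7 of 32 promoters held it (21.9%), and among cytosolic tRNA synthetases 6 of 16 (37.5%). The 250 bases before the start follow, 5′ to 3′ on the gene's strand, with a match in capitals.
ATF5, chr19:49928656-49928905, plus strand: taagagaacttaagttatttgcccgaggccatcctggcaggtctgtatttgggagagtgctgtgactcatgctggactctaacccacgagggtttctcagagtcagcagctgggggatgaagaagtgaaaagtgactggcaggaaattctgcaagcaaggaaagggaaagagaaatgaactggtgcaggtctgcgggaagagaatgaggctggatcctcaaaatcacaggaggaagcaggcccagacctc
WARS1, chr14:100376328-100376577, minus strand: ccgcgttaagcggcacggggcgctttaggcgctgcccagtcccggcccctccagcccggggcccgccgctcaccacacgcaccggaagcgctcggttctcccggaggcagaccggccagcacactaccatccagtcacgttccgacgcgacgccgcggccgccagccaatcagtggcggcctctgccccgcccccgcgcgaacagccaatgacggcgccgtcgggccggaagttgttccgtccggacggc
ASS1, chr9:130444457-130444706, plus strand: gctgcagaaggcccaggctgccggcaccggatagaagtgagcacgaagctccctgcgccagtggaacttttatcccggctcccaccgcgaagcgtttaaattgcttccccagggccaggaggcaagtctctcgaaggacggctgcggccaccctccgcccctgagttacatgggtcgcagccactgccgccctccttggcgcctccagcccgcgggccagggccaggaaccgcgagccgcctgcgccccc
CHAC1, chr15:40953221-40953470, plus strand: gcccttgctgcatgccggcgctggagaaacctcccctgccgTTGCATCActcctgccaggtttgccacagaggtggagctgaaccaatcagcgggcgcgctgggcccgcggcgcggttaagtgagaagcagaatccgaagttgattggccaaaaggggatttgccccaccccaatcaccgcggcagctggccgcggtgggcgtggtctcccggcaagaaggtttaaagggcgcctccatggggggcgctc
NDUFS6, chr5:1801157-1801406, plus strand: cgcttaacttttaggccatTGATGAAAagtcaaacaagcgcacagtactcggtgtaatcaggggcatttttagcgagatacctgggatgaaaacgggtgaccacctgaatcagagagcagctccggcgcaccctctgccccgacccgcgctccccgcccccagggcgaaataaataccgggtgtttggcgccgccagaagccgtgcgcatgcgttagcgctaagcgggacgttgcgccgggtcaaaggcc
ATF5, WARS1 and ASS1 had no match in the window. In CHAC1, a target of ATF4 that degrades glutathione, the match began 209 bases before the start and read on the strand opposite to the gene. NDUFS6, which fell, had a match that began 231 bases before the start. A match is a run of letters and does not show binding, and EPOP and SLC7A11 are not among the sequences shown.

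Known ATF4 targets leaned higher in RS4;11 as a list, by small amounts. Of 40 listed genes 36 were tested, and ATF5 alone was called, against 0.0199% of all genes. In 9 of the 36 all treated libraries lay above all controls (25%, against 8.17% of all genes tested), and in 1 they lay below (2.78%, against 9.69%). The median log2 fold change was 0.09 in the list and 0.00 over all genes, and was 0.06 without control 3 and 0.15 without treated library 3. Per library, the list's median difference from the mean of the controls was 0.15 log2 in treated libraries 1 and 2 but 0.00 in treated library 3, inside the controls' range of -0.02 to 0.03. The 9 non-overlapping genes were SLC7A11, CHAC1, ATF5, VLDLR, PSAT1, SESN2, SLC7A1, DDIT4 and PCK2. Only SLC7A11 differed by 1.5-fold or more in its mean.

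None of the stress genes of that list best known as readouts of ATF4 was called. ATF4 mRNA averaged 589 ± 16.9 CPM in controls and 589.9 ± 31.6 CPM in treated libraries (SD, n = 3), and its log2 fold change was 0.00 ± 0.06 (SE). DDIT3, which encodes the pro-apoptotic factor CHOP, read 13.7, 16.3 and 20.9 CPM in controls and 16.9, 13.7 and 14.9 CPM in treated libraries, and the groups overlapped. TRIB3, a pseudokinase induced by ATF4 and CHOP, read 19.6, 18.4 and 17.0 CPM in controls and 24.5, 25.1 and 17.3 CPM in treated libraries, so that libraries 1 and 2 were higher and library 3 lay among the controls. CHAC1 read 6.35, 5.63 and 5.83 CPM in controls against 10.7, 6.98 and 8.58 CPM in treated libraries. It did not overlap, but its log2 fold change of 0.56 ± 0.20 (SE) was not called (edgeR adjusted p 0.282). SESN2, an mTORC1 inhibitor, had a log2 fold change of 0.24 ± 0.11 and DDIT4, another, one of 0.19 ± 0.08 (SE), both without overlap and neither called. Genes on the opposite strand cover 31.6% of the exonic bases of DDIT3, 41.2% of those of DDIT4 and 37.4% of those of ARG2, and their reads cannot be told apart if strand was not used.

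Amino acid enzymes and exchangers of the list were not called either. PSAT1, of serine synthesis, read 123, 133 and 134 CPM in controls and 161, 165 and 143 CPM in treated libraries, with a log2 fold change of 0.27 ± 0.07 (SE) and an edgeR adjusted p of 0.173. PHGDH, the first enzyme of the same pathway, had a log2 fold change of 0.04 ± 0.06, and MTHFD2, of mitochondrial folate metabolism, one of 0.08 ± 0.06 (SE). SLC7A5 and SLC3A2, the subunits of the large neutral amino acid exchanger, stood at -0.04 ± 0.06 and -0.05 ± 0.06 log2 (SE), with overlapping groups. ASNS, asparagine synthetase, was barely detected, at 0.466 CPM in controls and 0.642 CPM in treated libraries, and 44.6% of its exonic bases overlap another gene on the same strand. Of the 21 cytosolic tRNA synthetases none was called and 6 had a positive log2 fold change. WARS1 was the 1 whose treated libraries were all above the controls (4.76%, against 8.17% of all genes), and RARS1, VARS1, FARSA, FARSB and KARS1 were all below them (23.8%, against 9.69%). The median of the 21 was -0.06. RARS1, the enzyme that charges arginine tRNA, averaged 65.6 CPM in controls and 54.3 CPM in treated libraries, a log2 fold change of -0.27 ± 0.09 (SE) that was not called.

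Genes of ribosome production stood lower in treated RS4;11. Of 36 genes of ribosome biogenesis and MYC targets, none was called, 22 had all treated libraries below all controls (61.1%, against 9.69% of all genes tested) and none had them above. The median log2 fold change was -0.14, and -0.11 with GC and length trends taken out. PPAN, a factor of large subunit assembly, had the largest difference, from 26.1 to 20.1 CPM, although 59.8% of its exonic bases overlap a gene on the same strand. NCL, nucleolin, read 2429, 2314 and 2227 CPM in controls and 2162, 2109 and 1980.0 CPM in treated libraries, a log2 fold change of -0.16 ± 0.06 (SE). MRTO4, a nuclear factor of large subunit maturation, read 197.5, 189 and 205 CPM in controls and 177, 158 and 157 CPM in treated libraries. Both genes were lower in every treated library than in any control. The 78 cytosolic ribosomal protein genes had no call: 7 lay below all controls (8.97%, against 9.69%) and none above (against 8.17%), their median was -0.01, and per library the list's median was higher than in any control in treated libraries 1 and 2 and lower than in any in treated library 3.

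Nuclear genes of oxidative phosphorylation also stood lower. Of 70 genes, NDUFS6 fell and no other was called, 35 lay below all controls (50%, against 9.69%) and none above. The median log2 fold change was -0.15, -0.10 with GC and length trends taken out and -0.08 with the length trend alone taken out. SDHB of complex II read 76.8, 77.1 and 75.0 CPM in controls and 64.5, 59.6 and 55.8 CPM in treated libraries. Other complexes had similar differences: CYC1 of complex III averaged 362 and 310.0 CPM in controls and treated libraries, COX6C of complex IV 317 and 272 CPM, and ATP5F1D of the ATP synthase 108 and 89.3 CPM. NDUFA1, a complex I subunit, read 72.2, 75.6 and 77.6 CPM in controls and 60.8, 58.8 and 59.6 CPM in treated libraries, and 44.5% of its exonic bases overlap an opposite-strand gene. None of these 5 was called (edgeR adjusted p of 0.13 to 0.17). Only 9 of the 70 had a positive log2 fold change.

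Target genes of p53 also stood lower. Of 27 tested none was called and 10 lay below all controls (37%, against 9.69%). SESN2, which is also an ATF4 target, was the 1 above (3.7%, against 8.17%). The median was -0.18, -0.15 with trends taken out and -0.11 without control 1. CDKN1A, the cell cycle inhibitor p21, read 140.1, 133 and 128 CPM in controls and 119, 121 and 116 CPM in treated libraries, a log2 fold change of -0.18 ± 0.07 (SE) with an edgeR adjusted p of 0.297. BAX, a pro-apoptotic protein of the mitochondrial membrane, read 68.8, 81.0 and 81.5 CPM in controls and 60.8, 59.7 and 63.5 CPM in treated libraries. MDM2, the ubiquitin ligase of p53, averaged 109 and 94.8 CPM. All 3 had treated libraries below every control.

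**Figure D3:**
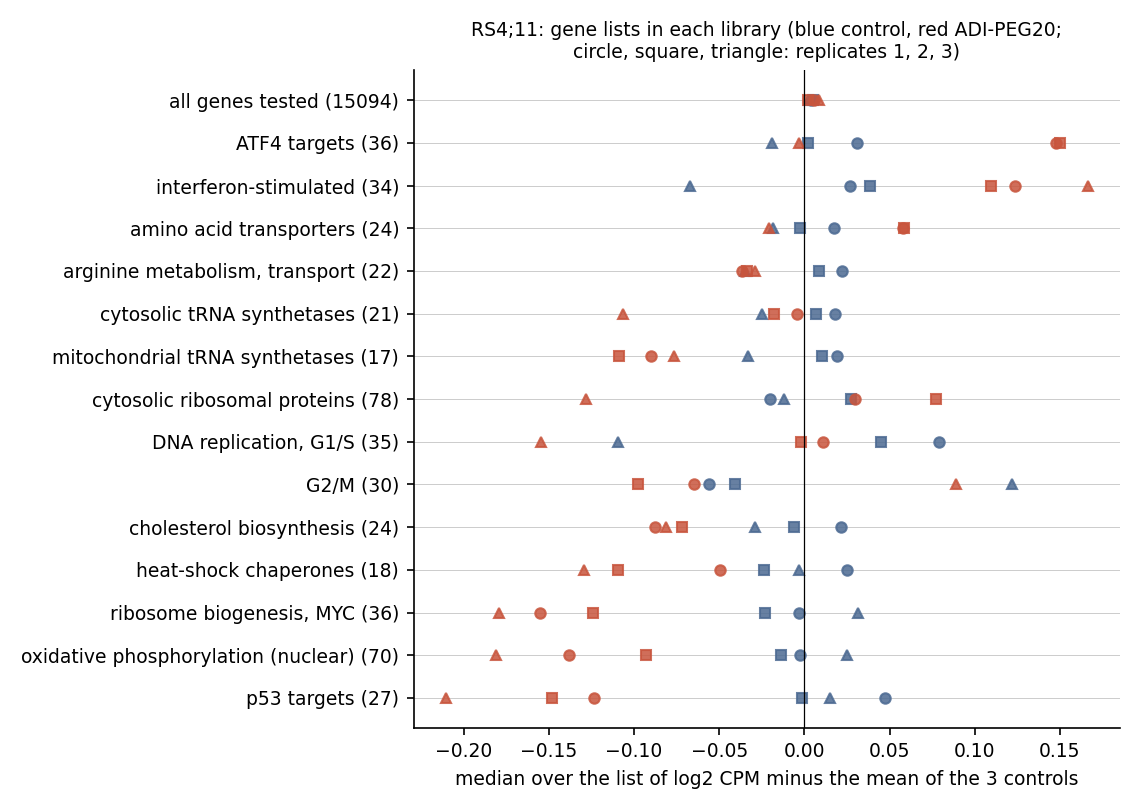
Median over each list of a gene's log2 CPM minus its mean over the 3 controls (horizontal), for 14 lists and all genes (vertical, genes tested in brackets), with control libraries in blue and treated ones in red. Oxidative phosphorylation, ribosome biogenesis and p53 targets lie below 0 in all 3 treated libraries, while treated library 3 falls among the controls for ATF4 targets.

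Interferon-stimulated genes leaned higher. Of 34 tested none was called, 9 lay above all controls (26.5%, against 8.17%) and none below, and the median was 0.08, 0.12 with trends taken out and 0.14 without control 1. OAS3, which senses double-stranded RNA, averaged 37.2 CPM in controls and 46.2 CPM in treated libraries, and SAMD9L, an antiviral factor, read 13.1, 14.6 and 14.2 CPM and then 18.7, 16.2 and 22.2 CPM. RIGI, the RNA sensor RIG-I, had the largest difference of the list from a low level, 0.472, 0.662 and 0.722 CPM in controls and 2.01, 1.71 and 1.23 CPM in treated libraries. Every treated library was above every control for these genes. Of 18 heat-shock chaperone genes tested none was called, 7 lay below all controls (38.9%, against 9.69%) and none above, with a median of -0.08. HSPB1, a small chaperone, averaged 1179 and 1003 CPM, and HSPD1, the mitochondrial chaperonin, 1856 and 1669 CPM, both without overlap between groups.

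No gene was called in the lists for cell division, secretory stress, autophagy and cholesterol synthesis. Among 35 genes of DNA replication 2 lay below all controls (5.71%, against 9.69% of all genes) and none above, with a median of -0.05. Among 30 genes of mitosis 4 lay above (13.3%, against 8.17%) and 1 below (3.33%), with a median of -0.02. For DNA replication control 3 and treated library 3 had the lowest medians of their groups, and for mitosis the highest. ER chaperones and the unfolded protein response had 3 above (11.5%) and 6 below (23.1%) of 26, with a median of 0.01. Autophagy and lysosome genes had 2 above (6.06%) and 1 below (3.03%) of 33, with a median of -0.02. Cholesterol synthesis genes had 0 above and 6 below (25%) of 24, with a median of -0.06.

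**Figure D4:**
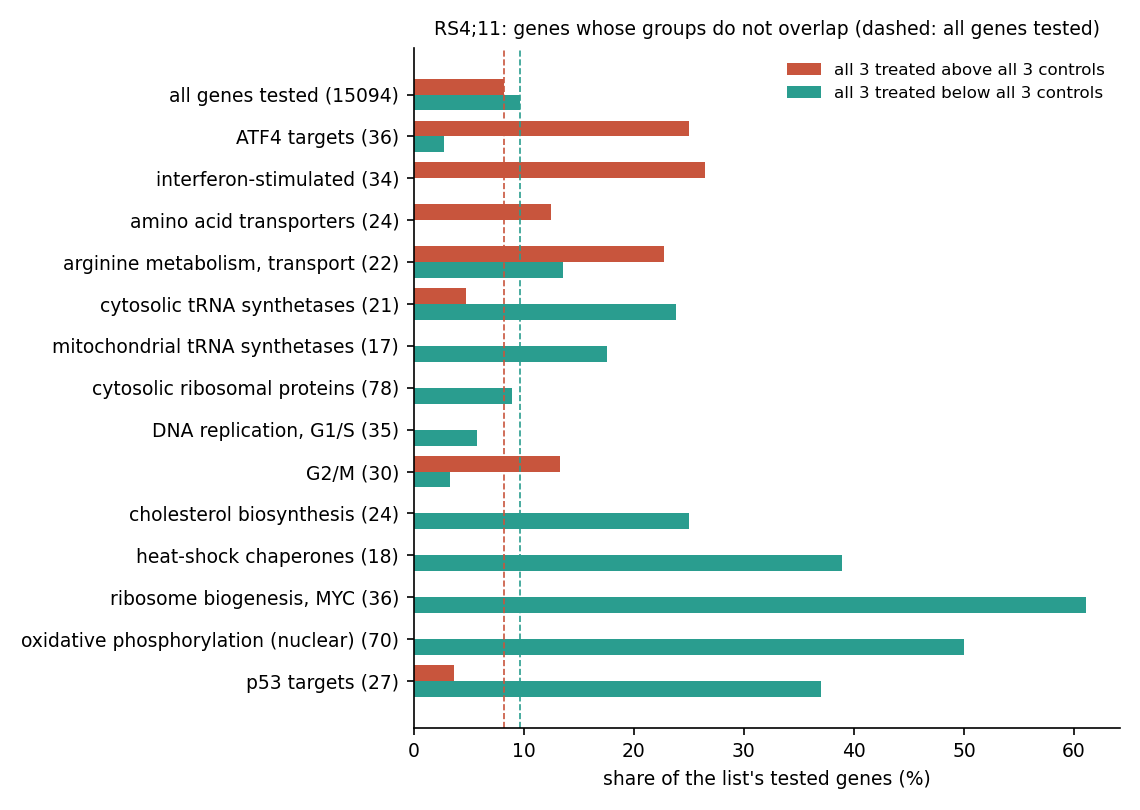
Share of each list's tested genes (horizontal, %) whose 3 treated libraries all lie above (red) or all below (green) the 3 controls, with the share over all genes as dashed lines at 8.17% and 9.69%. Ribosome biogenesis reaches 61.1% below and oxidative phosphorylation 50%, while 25% of ATF4 targets lie above.

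Other genes were named for the smallest p-values or the largest differences, PHLDA3, a p53 target, among them. Whether they share a function was not tested. Higher but not called were VAT1L, a relative of the synaptic vesicle protein VAT-1, with 102, 108 and 99.7 CPM in controls and 134, 142 and 131 CPM in treated libraries (edgeR adjusted p 0.0656), MFGE8, a secreted glycoprotein that binds phosphatidylserine, CCNG2, an atypical cyclin, and SLC25A36, a mitochondrial pyrimidine nucleotide carrier. Their mean levels differed by 1.27-fold to 1.4-fold. Lower but not called were DOHH, the last enzyme of hypusine synthesis on eIF5A, which averaged 37.0 and 24.8 CPM, TOMM40, the pore of the outer mitochondrial membrane, 282 and 227 CPM, MRPL41 of the mitochondrial ribosome, 50.1 and 36.4 CPM, LRRC59, a ribosome-binding protein of the ER membrane, 168 and 135 CPM, RPS19BP1, a binding partner of the ribosomal protein RPS19, 67.8 and 49.6 CPM, and CCDC85B, 244 and 184 CPM. Groups that did not overlap were a condition for naming these genes. With GC and length trends taken out, each of these lower genes had a smaller log2 fold change in size. It went from -0.46 to -0.25 for MRPL41, from -0.41 to -0.24 for CCDC85B, from -0.58 to -0.42 for DOHH and from -0.45 to -0.40 for RPS19BP1. Among genes with a symbol, a mean of 5 CPM or more and groups that did not overlap, the largest differences at an unadjusted p under 0.05 came mostly from genes of low level, TENT5A, TXLNB, PGAP1 and SPNS3 higher, with log2 fold changes of 0.77 to 0.91, and PKDCC, PHLDA3, ZSCAN5A, ZNF219 and DOHH lower, with -0.72 to -0.58. The leukaemia genes HOXA9 and MEIS1 averaged 77.0 and 70.8 CPM in controls and 78.1 and 77.7 CPM in treated libraries, and neither was called. HOXA9 overlapped between groups, while MEIS1 did not, at 68.9 to 72.7 CPM in controls and 73.2 to 81.9 CPM in treated libraries. Of the 18 genes known from KMT2A-rearranged leukaemia, 4 lay above all controls (22.2%, against 8.17% of all genes) and 0 below (against 9.69%), with a median of 0.05.

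A fit that shares the spread of 11 libraries of both lines called 58 genes in RS4;11, 37 higher and 21 lower (0.317% of 18321 tested). Of the 58, 49 were also called by DESeq2, and 5 with GC and length trends taken out. The fit with trends taken out used the RS4;11 libraries alone and called 5 genes in all. With the trends left in, edgeR called 3 in the same libraries. The step from 58 to 5 therefore does not measure the part of these trends. In 57 of the 58 the groups did not overlap, against 8.17% of all genes higher and 9.69% lower. All these counts rest on the same RS4;11 libraries. WARS1, SLC7A11 and ASS1 were among the 58, with edgeR adjusted p of 0.00959, 0.00959 and 0.0422. CD79A, a subunit of the B-cell receptor, was called too, at 277 CPM in controls and 332 CPM in treated libraries. It was the 1 gene called among the 20 B-precursor markers. Of these 20, 3 lay above all controls (15%, against 8.17% of all genes) and 1 below (5%, against 9.69%). HLA-DRA, of MHC class II, was also called and averaged 155 and 182 CPM. The others included SORL1, BACH2, ATM and NORAD higher, and TUFM, the mitochondrial elongation factor, FASN, fatty acid synthase, and PSMD2 of the proteasome lower. With all 12 libraries edgeR called 0 genes, with 325 at an unadjusted p under 0.05.

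The effect of ADI-PEG20 differed between the lines for 5567 of 18321 genes (30.4%; edgeR, 11 libraries), and for 2072 when TOM-1 control 3 was kept. For ATF5 the log2 fold change was larger in TOM-1 by 1.05 ± 0.08 (SE, adjusted p 1.5e-09), and for WARS1 by 1.58 ± 0.08 (adjusted p 8e-12). With all 12 libraries these differences were 0.82 and 1.49, both still called. For SLC7A11 the difference was 0.90 ± 0.14 (adjusted p 3.18e-05), and with all 12 libraries 1.32, not called. The largest among the named ATF4 targets was TRIB3, at a log2 fold change of 4.21 in TOM-1 and 0.29 in RS4;11. DDIT3, CEBPB and SESN2 followed, with effects larger in TOM-1 by 2.83, 2.61 and 1.96 log2. Over the list, 30 of 37 ATF4 targets had a larger effect in TOM-1 and 1 a smaller one, against 30.4% of all genes differing in either direction.

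**Figure D5:**
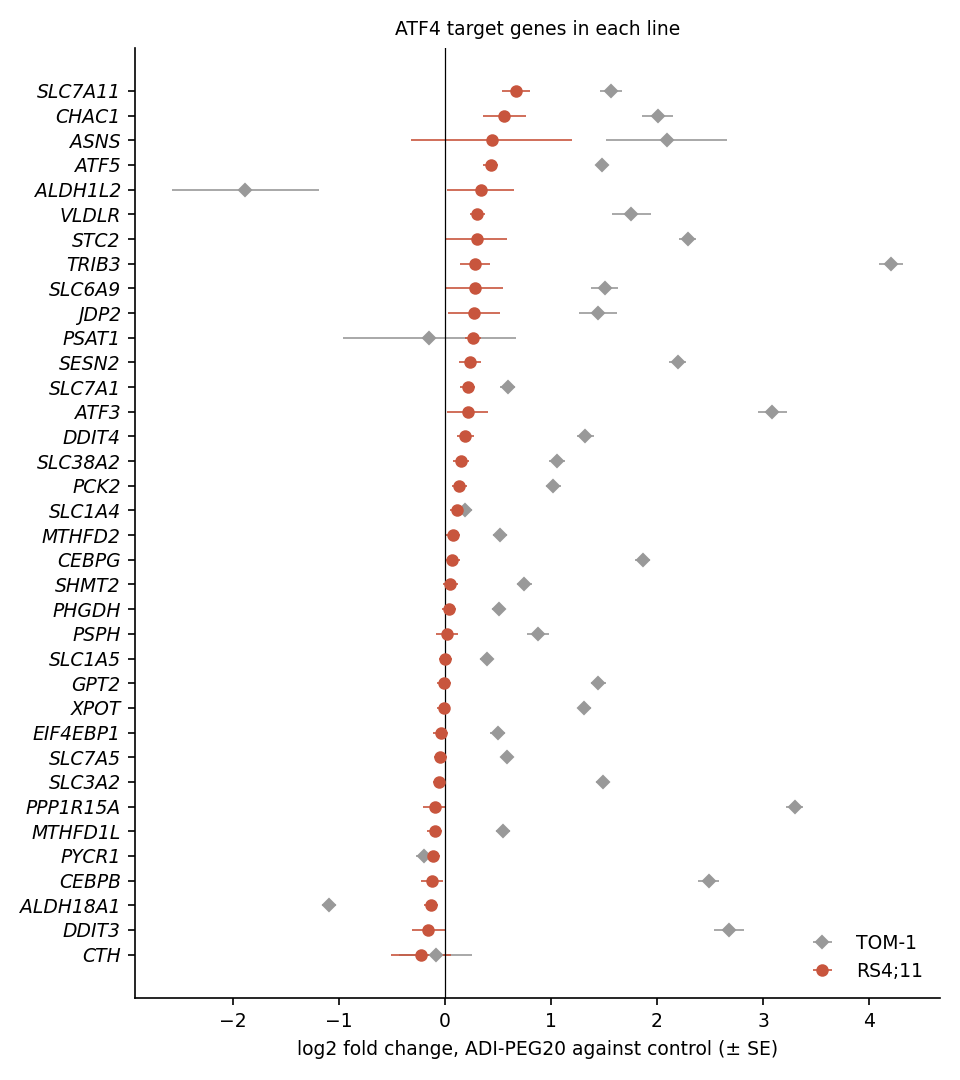
Log2 fold change of ADI-PEG20 against control (horizontal, ± SE) of 36 ATF4 targets (vertical, ordered by their value in RS4;11), for RS4;11 in red (6 libraries) and TOM-1 in grey (11-library fit). RS4;11 values run up to 0.67 for SLC7A11, and TOM-1 values up to 4.21 for TRIB3.

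The lists that stood lower in RS4;11 did not all do so in TOM-1. CDKN1A differed between lines by 2.09 ± 0.09 log2 (SE, edgeR adjusted p 6.21e-13), being higher with ADI-PEG20 in TOM-1 at a log2 fold change of 1.90. Of 27 p53 targets 21 had a larger effect in TOM-1 and none a smaller one, against 30.4% of all genes differing in either direction. The median of the p53 list was 0.87 in TOM-1 and -0.18 in RS4;11. Oxidative phosphorylation and ribosome biogenesis had negative medians in both lines, -0.15 and -0.14 in RS4;11 against -0.63 and -0.78 in TOM-1. NDUFS6 had a log2 fold change of -0.67 in TOM-1, and its difference between lines, -0.20 ± 0.11 (SE), was not called (adjusted p 0.229). EPOP had one of -0.97 in TOM-1, and its difference of -0.45 ± 0.13 was called (adjusted p 0.0106), but not with all 12 libraries (-0.72, adjusted p 0.0898). ATF4 mRNA differed in the other direction from its targets, by -0.26 ± 0.08 (adjusted p 0.0121), and with all 12 libraries the difference was -0.59 and not called (adjusted p 0.179).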

How the data were processed

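Poly(A) RNA was sequenced in 12 libraries, 3 in each of 4 groups taken from the sample titles. The authors deposited a table of unnormalized read counts by Ensembl identifier; STAR, SAMtools, featureCounts and hg38 are named, per the submitters' processing notes, while versions, settings, strand use and annotation are not given in the sources used here. The 60664 genes included 29301 at 0 throughout. Symbols came from an Ensembl name table (60463 matched), and positions, length, GC content and exonic overlaps from GENCODE 29. Total counts set the counting error.

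The RS4;11 comparison used R 4.3.3 with edgeR 4.0.16: filterByExpr, TMM scaling, glmQLFit and glmQLFTest on the 6 RS4;11 libraries, with Benjamini-Hochberg adjustment over 15094 genes at 0.05. SE is the log2 fold change divided by the square root of F. The difference between lines was an interaction contrast in 11 libraries. Lists are described without a test. Named genes are those called, the 8 with smallest p and the 5 with the largest change per direction (mean of 5 CPM or more, groups not overlapping), and 26 chosen by name; 1 gene the rule selects is not reported. CD79A, HLA-DRA and list examples were chosen after their values were seen. Members and lists were chosen with earlier results of these data known.

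Alternatives were DESeq2 1.42.0, limma 3.58.1 voom, other scalings, filters and dispersions, a replicate block, fits with TOM-1, each library left out and, added after seeing the data, offsets removing GC and length trends (lowess, span 0.3). Fits were tested on simulated data with 200 genes changed. Figures used matplotlib 3.10.9.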

Additional observations from a re-analysis of the deposited data

Results flagged for a closer look

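The effect of ADI-PEG20 differed between the lines for 27 of the 46 named genes, against 30.4% of all genes tested. The test was edgeR's interaction in 11 libraries, at an adjusted p under 0.05. Some of the 46 were named for their change in RS4;11, and this test uses those values again. Values in brackets are the log2 effect in TOM-1 minus that in RS4;11, 21 positive and 6 negative. In the amino acid response, TOM-1 had the larger effect for TRIB3 (3.92), DDIT3 (2.83), CEBPB (2.61), SESN2 (1.96), SLC3A2 (1.54), CHAC1 (1.44), DDIT4 (1.14), ATF5 (1.05), SLC7A11 (0.90), SLC7A5 (0.63), PHGDH (0.47), MTHFD2 (0.44), SLC7A1 (0.38) and WARS1 (1.58). Among p53 targets it was larger in TOM-1 for PHLDA3 (2.33), CDKN1A (2.09) and MDM2 (0.33). It was also larger in TOM-1 for SPNS3 (1.86), RPS19BP1 (0.86), DOHH (0.75) and CCNG2 (0.42). It was lower in TOM-1 than in RS4;11 for PGAP1 (-1.52), CCDC85B (-1.04), TOMM40 (-0.64), EPOP (-0.45), LRRC59 (-0.34) and ATF4 (-0.26). With all 12 libraries, 13 of the 27 passed the threshold, and all 27 kept their sign. In DOHH and RPS19BP1 treated RS4;11 libraries lay below all controls, while in TOM-1 the log2 fold changes were 0.17 and 0.41 without TOM-1 control 3. With that library kept, the differences between lines shrank to 0.12 and 0.20, smaller in size than the log2 fold changes in RS4;11 (-0.58 and -0.45), so that the opposite directions rest on leaving it out. PGAP1 went the other way, at 0.82 in RS4;11 and -0.71 in TOM-1. PGAP1 was named for its large change in RS4;11, where it was not called (edgeR adjusted p 0.176). With all 12 libraries its difference between lines was -1.18 and not called (edgeR adjusted p 0.135). Causes of these differences were not tested.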

How the results depend on the processing

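The count of 3 called genes moved by over 1.5 times in all 19 alternatives, and its cause was not tested. It was 0 with DESeq2 size factors in edgeR (1711 at an unadjusted p under 0.05), 6 with upper-quartile scaling, 91 with no filter, 5 with a mean of 10 counts, 202 by DESeq2's Wald test, 7 by limma voom, 5 with robust dispersions, 58 with 11 libraries of both lines and 0 with 12. It was 6 with the GC trend taken out, 6 with the length trend and 5 with both. Leaving out each library gave 0 to 7. The difference between the lines went from 5567 to 2072 genes when TOM-1 control 3 was kept. The medians of ATF4 targets (0.06 to 0.15), ribosome biogenesis (-0.16 to -0.11), oxidative phosphorylation (-0.16 to -0.08), p53 targets (-0.19 to -0.11) and interferon-stimulated genes (0.08 to 0.14) kept their sign in all 19 alternatives.

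With the replicate number as a block edgeR called 755 genes, 325 higher and 430 lower, and 5735 for the difference between the lines. The labels do not say that the numbers pair the libraries. Deviations of same-numbered control and treated libraries correlated at 0.0702, 0.043 and 0.183. Controls 1 and 3 correlated best with the treated library of their own number, and control 2 with treated library 1. In log2 expression control 3 had a Pearson correlation of 0.9784 with treated library 3, and of 0.9771 and 0.9769 with controls 1 and 2. Whether replicates share an effect was not tested further.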

Other observations

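Some gene families, chosen after their values were seen, extend the lists above in RS4;11. None of their genes was called. Of 37 proteasome subunits 20 had all treated libraries below all controls (54.1%, against 9.69% of all genes) and none above, with a median log2 fold change of -0.15; PSMD2 averaged 279 and 232 CPM in controls and treated libraries. Of 8 subunits of the CCT chaperonin 7 lay below (87.5%), with a median of -0.18, and CCT7 averaged 605 and 531 CPM. Of 77 mitochondrial ribosomal protein genes 26 lay below (33.8%) and none above (median -0.12), and of 24 TOMM and TIMM genes of mitochondrial import 5 lay below (20.8%) and none above (median -0.16). In the other direction, 4 of 11 MHC class II genes lay above all controls (36.4%, against 8.17% of all genes) and none below, with a median of 0.21, and of 423 ZNF genes, a family of transcription factors with zinc fingers, 68 lay above (16.1%) and 24 below (5.67%), with a median of 0.07. The median GC content was 47.6% for the mitochondrial ribosomal proteins and 43.4% for the ZNF genes, and with GC and length trends taken out their medians were -0.10 and 0.05.

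IL21R-AS1, an antisense RNA of the interleukin-21 receptor gene chosen after its values were seen, had 0 counts in the 3 RS4;11 controls and 14, 13 and 14 counts with ADI-PEG20. Its edgeR adjusted p was 0.127 in the 6 libraries and 0.0433 with 11 libraries of both lines. Of its exonic bases 48.7% overlap a gene on the opposite strand, and the use of strand in counting is not given in the sources used here. In TOM-1 it had 12, 4 and 0 counts in controls and 10, 29 and 36 with ADI-PEG20.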
